A study of Mus musculus with 12 samples.

Results

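A set of 10 of the 24421 genes in the count table, of which 15923 were tested, was chosen by the steepness of their decrease in Control lung between postnatal day 14 (P14) and postnatal day 36 (P36). They are Aspn, Thbs2, Nell1, Lrrc15, Sdk1, Mansc4, Cacna1g, Kctd16, Camk1g and Trim67. The choice had no stated threshold. Because Control levels chose them, their decrease in Control is described without a test, and the question put to the data is whether the lungs labelled CKO showed the same fall. RNA of whole mouse lung was sequenced in 12 libraries, 3 for each of 4 groups, which were Control at P14, Control at P36, CKO at P14 and CKO at P36. Control animals carried Tbx4 alleles flanked by loxP sites (Tbx4fl/fl), and CKO animals were a conditional knockout of Tbx4, a T-box transcription factor of the lung mesenchyme. The labels name no Cre driver, strain or sex, and nothing states that the libraries of a group came from separate animals, so p-values measure the spread between these libraries.

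The lung forms most of its alveoli after birth, when myofibroblasts lay down elastin and collagen at the tips of growing septa. These myofibroblasts are known to be a transient population that is largely gone from the alveolar wall once the septa have formed. Several of the 10 genes belong to the biology of matrix-producing cells. Asporin (Aspn) is a small leucine-rich proteoglycan that binds collagen, thrombospondin 2 (Thbs2) is a matricellular glycoprotein, and Nell1 is a secreted protein with a thrombospondin-like domain that promotes bone formation. Lrrc15 is a membrane protein with leucine-rich repeats found on activated fibroblasts, Sdk1 (sidekick 1) is an adhesion molecule of the immunoglobulin superfamily, and Mansc4 is a membrane protein named for its MANSC domain. Cacna1g encodes the pore of a T-type calcium channel, Kctd16 an auxiliary subunit of GABA-B receptors, Camk1g a calmodulin-dependent kinase and Trim67 a ubiquitin ligase best known from the brain.

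The promoters of the genes were unlike each other in base composition, although the genes were chosen for one shared pattern. RefSeq promoter sequences (build GRCm38.p6, the 250 bases before the transcription start) were examined for 7 of the 10 genes. The counts below cover these 7 only and say nothing about the promoters of the rest of the set. Those of Camk1g and Trim67, among the deepest decreases, and of Aspn and Sdk1, the shallowest in Control, are shown because depth of decrease and base composition varied separately in them. Each reads 5′ to 3′ on the strand of its gene, and capitals mark CG dinucleotides. The 30 bases after the window were found in an annotated transcript for each of the 7 genes but Trim67 and Thbs2. Camk1g lies at chr1:193370283-193370532 (minus strand), Trim67 at chr8:124792769-124793018 (plus strand), Aspn at chr13:49544193-49544442 (plus strand) and Sdk1 at chr5:141241284-141241533 (plus strand).
Camk1g: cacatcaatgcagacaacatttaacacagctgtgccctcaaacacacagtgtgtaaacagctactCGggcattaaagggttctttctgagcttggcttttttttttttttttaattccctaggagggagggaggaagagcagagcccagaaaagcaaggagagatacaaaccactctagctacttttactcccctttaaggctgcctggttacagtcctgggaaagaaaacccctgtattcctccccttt
Trim67: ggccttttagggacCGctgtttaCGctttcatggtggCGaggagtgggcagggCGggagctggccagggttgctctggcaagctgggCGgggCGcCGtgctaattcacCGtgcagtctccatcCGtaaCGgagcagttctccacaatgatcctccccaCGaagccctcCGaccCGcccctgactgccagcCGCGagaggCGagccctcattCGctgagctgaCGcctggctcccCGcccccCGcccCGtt
Aspn: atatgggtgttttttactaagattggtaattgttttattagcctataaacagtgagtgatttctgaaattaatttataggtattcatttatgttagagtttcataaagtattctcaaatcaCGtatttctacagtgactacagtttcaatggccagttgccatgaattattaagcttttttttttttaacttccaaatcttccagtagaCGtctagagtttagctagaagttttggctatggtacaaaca
Sdk1: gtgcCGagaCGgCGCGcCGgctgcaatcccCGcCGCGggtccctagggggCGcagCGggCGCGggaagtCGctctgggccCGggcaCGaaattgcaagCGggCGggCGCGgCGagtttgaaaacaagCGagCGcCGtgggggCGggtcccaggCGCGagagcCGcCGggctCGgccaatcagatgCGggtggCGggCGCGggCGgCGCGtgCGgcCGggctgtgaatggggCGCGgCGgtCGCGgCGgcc
Camk1g held 1 CG dinucleotide in this window and Aspn 2, against a median of 6 over 32851 mouse promoters of this length. Trim67 held 21 and Sdk1 44, more than 83.7% and 99.5% of all promoters. Of the others, Thbs2 held 3, Lrrc15 11 and Nell1 22. The letters TATAAA, on either strand, were found in the Aspn and Thbs2 windows (12.4% of all promoters hold them). The T-box letters AGGTGTGA were in 0 of the 7 windows (1.12% of all promoters) and the AP-1 letters TGANTCA in 1, that of Lrrc15 (6.75% of all promoters). A match describes letters and not a site in use, and none found says only that these letters are absent from this window.

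Depth was 17806206 to 28481876 counts a library. Lung markers were abundant in every library, with the surfactant gene Sftpc at 2326 to 7340 CPM (read counts scaled to a common library size) and the endothelial gene Pecam1 at 500.4 to 767 CPM. A pair of Control libraries at P36 (replicates 1 and 3) carry the same library number in the labels apart from an added letter b. So do a pair of CKO libraries at P14 (replicates 2 and 3). The letter is not explained, and each pair was taken to share a library number. These 2 pairs differed less (biological coefficient of variation 2.01% and 3.89%) than the other 10 pairs within a group (10.5% to 26.9%). Y-linked counts exceeded Xist in every CKO library at P36 and in Control replicate 2 of that age, and the reverse held in the 8 others. In CKO the age contrast therefore cannot be told apart from this sex difference. Comparisons of CKO with Control at P36, and differences between their changes with age, are also partly mixed with it. Control at P36 held libraries of both kinds and CKO at P36 only the Y-high kind. CKO replicate 3 at P36 stood apart in markers of tissues beside the alveoli: the 9 adipocyte markers tested summed to 1080 CPM there, against 24.9 and 32.6 CPM in the other CKO libraries at P36, and the 9 cardiac muscle markers to 1387 CPM against 168 and 253 CPM. Mean Tbx4 went from 134 ± 23.2 to 69.0 ± 9.39 CPM with age in Control (SD, n = 3) and from 121 ± 8.93 to 79.1 ± 10.6 CPM in CKO. The count of a whole gene does not show a deleted exon, so Tbx4 checks no label. In whole lung, fewer cells of a type and less RNA in each cell cannot be told apart.

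All 10 genes fell from P14 to P36 in CKO as well. In edgeR's quasi-likelihood test each of the 10 was past an adjusted p (Benjamini-Hochberg over all 15923 genes tested) of 0.05, in a comparison in which 13.2% of all genes were lower and 14.3% higher. The log2 fold changes in CKO ran from -4.23 (Camk1g) to -1.56 (Sdk1), with a median of -2.55, beside a median of 0.02 over all genes tested. In Control, where the genes were picked, the same fold changes ran from -6.22 to -2.06 with a median of -3.98. All 10 passed the filter on low counts, but Nell1, Lrrc15, Mansc4 and Camk1g did so through their P14 libraries. Passing it is therefore no result about these genes. In every one of them each CKO library at P36 lay below each CKO library at P14, a separation seen in 21.3% of all genes. The count was 9 of 10 with libraries of a shared library number summed, 9 without CKO replicate 3 at P36 (Kctd16 was lost in both). With a term for sex 5 passed and Nell1 (adjusted p = 0.302), Kctd16 (0.26), Camk1g (0.142), Cacna1g (0.1) and Mansc4 (0.0685) did not, and with both the sum and that term Aspn alone passed. The term for sex rests on a single Control library.

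**Figure D1:**
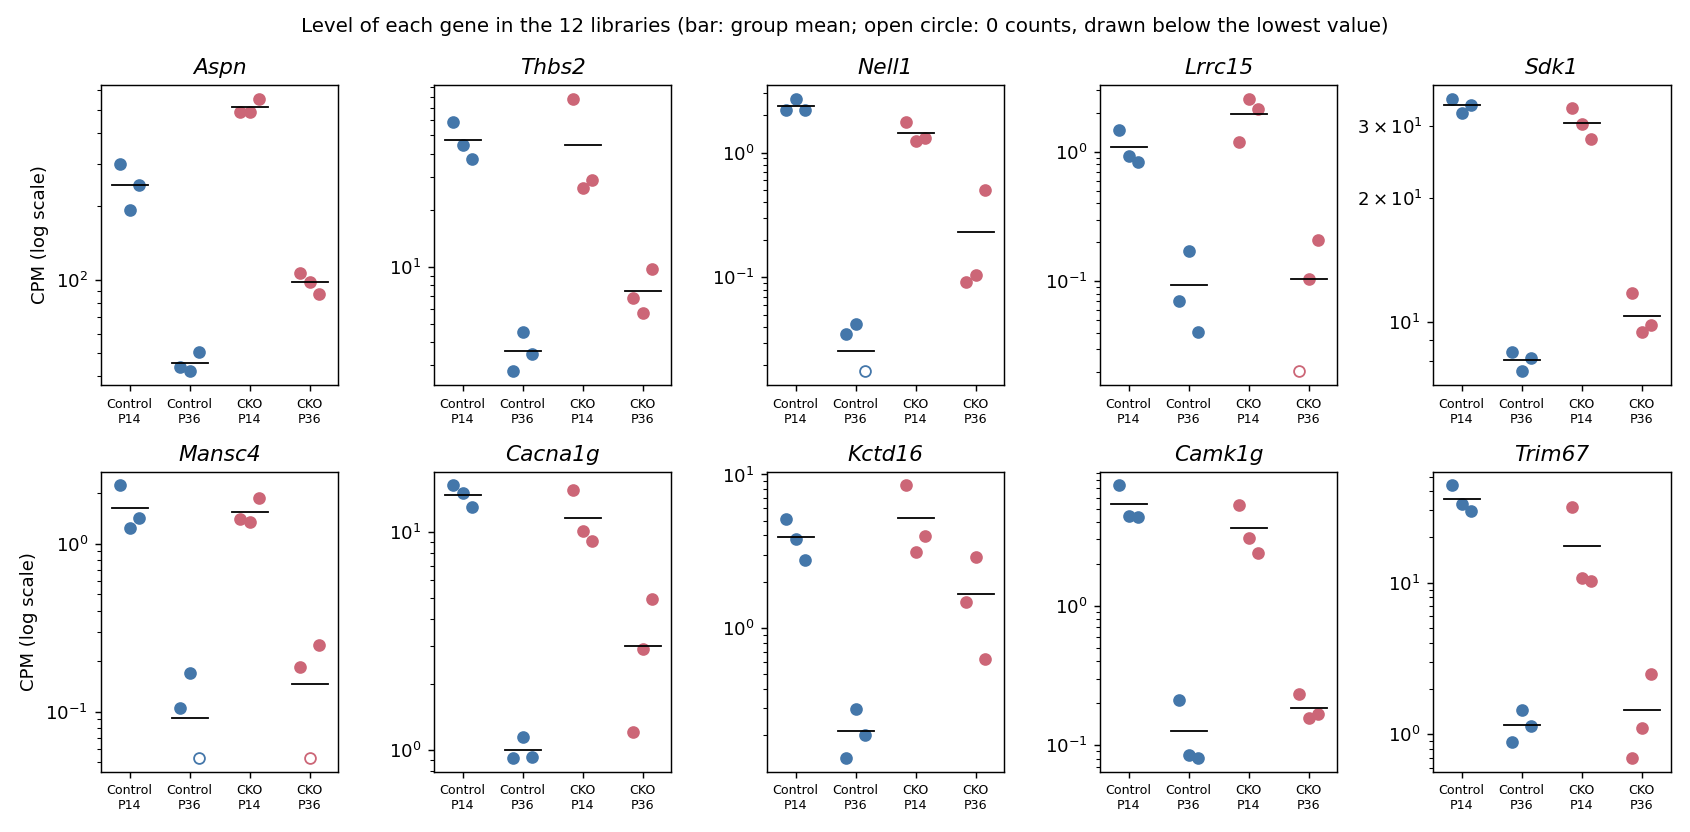
CPM (log axis, a different range in each panel) of the 10 genes in the 12 libraries, 3 points a group in the order replicate 1 to 3, with a bar at the group mean and an open circle for 0 counts. In each panel the P36 points of a genotype lie below its P14 points, and for Aspn the CKO points lie above the Control points of the same age.

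The name "nearly silenced" held for some of the genes only. In Control at P36, 8 of the 10 kept at most 10% of their mean CPM at P14, the lowest being Nell1 with 1.10% and Camk1g with 2.35%. Aspn kept 18.5% and Sdk1 23.9%, and Aspn remained an abundant transcript. In CKO only 4 of the 10 were at or under 10%, namely Camk1g (5.15%), Lrrc15 (5.33%), Trim67 (8.18%) and Mansc4 (9.44%). At the other end Kctd16 kept 32.1% and Sdk1 34.0% in CKO. Counted per length (RPKM, CPM divided by exon length in kilobases), levels were far apart: in Control at P14 Aspn stood at 104 ± 22.2 RPKM, Thbs2 at 7.93 ± 1.86 and Lrrc15, the lowest, at 0.204 ± 0.0637 (SD, n = 3). Trim67 (4.04 ± 0.836 RPKM) and Sdk1 (3.95 ± 0.159 RPKM), which follow Thbs2 in that order, did not differ beyond their spread. At P36 in Control, Aspn was still first at 19.3 RPKM and Sdk1 second at 0.945 RPKM. Nell1 was last there, at 0.00922 RPKM.

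**Figure D2:**
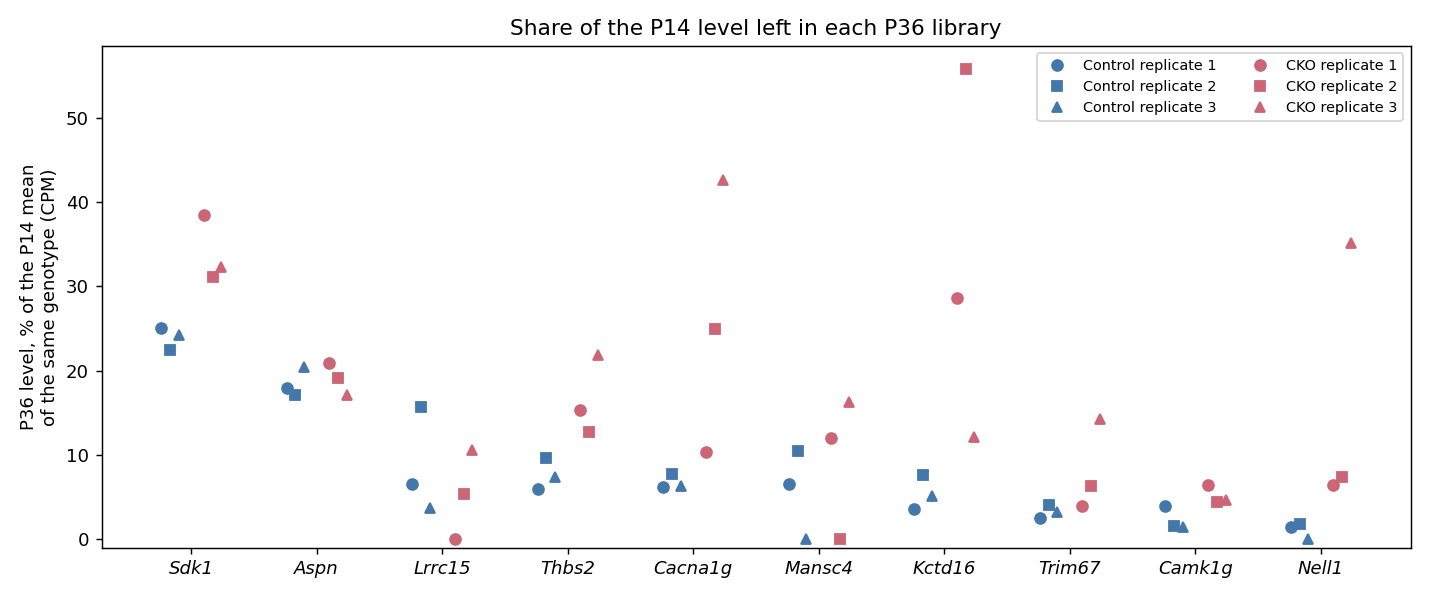
CPM in each P36 library as a percentage of the mean P14 CPM of the same genotype, for each gene on the horizontal axis ordered by the size of its Control decrease. The 3 Control points lie close together for Sdk1 and Aspn, while the CKO points of Kctd16, Cacna1g and Nell1 are spread, with one library each above the rest.

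Among the secreted matrix proteins, Aspn fell by nearly the same fold in CKO as in Control, from a higher level. Aspn (chromosome 13, 49544443 to 49567562, build mm10, plus strand, 8 merged exons) stood at 298, 194 and 244 CPM in the Control libraries at P14 and at 43.9, 41.9 and 50.2 CPM at P36. In CKO it stood at 490.2, 489 and 555 CPM at P14 and at 107, 97.8 and 87.5 CPM at P36. The CKO libraries were the higher ones at each age with no overlap, and the 2 ages did not overlap in either genotype. The share of all genes whose genotypes do not overlap was not computed, for this gene or those below. Its log2 fold change with age was -2.39 ± 0.14 in CKO (SE, adjusted p = 9.19e-06) and -2.44 ± 0.15 in Control, a difference of 0.04 ± 0.19. CKO exceeded Control by 1.06 ± 0.14 at P14 and 1.10 ± 0.14 at P36 on the log2 scale, values given without a test because Control libraries chose the gene. Its call in CKO stood in all 18 alternative analyses. The gene overlaps an exon of Cenpp on the opposite strand by 7 bases, and the labels do not say whether counting used strand.

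Thbs2 (chromosome 17, 14665500 to 14694262, minus strand, 22 merged exons) fell in CKO with wide scatter at P14. It stood at 59.1, 44.2 and 37.6 CPM in Control at P14 and 2.79, 4.50 and 3.46 CPM at P36. In CKO the P14 libraries gave 78.3, 26.3 and 28.9 CPM and the P36 libraries 6.81, 5.67 and 9.75 CPM. The high P14 value is CKO replicate 1, and the 2 lower ones are the libraries that shared a number. Every CKO library at P36 was above every Control library at P36, while at P14 the genotypes overlapped. The log2 fold change in CKO was -2.58 ± 0.43 (SE, adjusted p = 0.0026), against -3.72 ± 0.46 in Control, a difference of 1.14 ± 0.60. Without CKO replicate 1 at P14 the change in CKO was -1.89.

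Nell1 (chromosome 7, 49975350 to 50863289, plus strand, 20 merged exons) was a low transcript even at P14. Control libraries at P14 held 2.18, 2.71 and 2.21 CPM and CKO libraries 1.74, 1.24 and 1.30 CPM, so CKO lay below Control without overlap at that age. At P36 CKO lay above Control without overlap, at 0.0926 to 0.502 CPM against 0 to 0.0425 CPM. The Control libraries had 2 counts in all at P36, against 143 at P14. The CKO libraries had 16 counts at P36, 12 of them in replicate 3, against 82 at P14, a ratio of P14 to P36 per count of 5.71 (exact 95% interval 3.32 to 10.5, counting error only). The change in CKO was -2.52 ± 0.49 on the log2 scale (adjusted p = 0.00406, or 0.302 with a term for sex) and -3.77 without replicate 3, the library high in adipocyte and cardiac markers. The part of that tissue in the Nell1 counts was not tested.

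Lrrc15 (chromosome 16, 30269302 to 30283254, minus strand, 2 merged exons) stood at 1.47, 0.937 and 0.841 CPM in Control at P14 and at 1.18, 2.58 and 2.14 CPM in CKO. At P36 the Control libraries held 7 counts in all and the CKO libraries 7. One CKO library had no count, and the genotypes overlapped at both ages. The log2 fold change in CKO was -4.12 ± 0.62 (adjusted p = 0.00107), against -3.48 ± 0.64 in Control. This was the single gene with a deeper fall in CKO, by 0.64 with an SE of 1.06. Without CKO replicate 3 at P36 the change in CKO was -5.16.

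Sdk1 (chromosome 5, 141241534 to 142213791, plus strand, 45 merged exons) had the shallowest decrease and little scatter. It stood at 34.95, 32.3 and 33.8 CPM in Control at P14 and at 8.44, 7.56 and 8.14 CPM at P36. In CKO the values were 33.1, 30.3 and 27.9 CPM at P14 and 11.7, 9.46 and 9.83 CPM at P36. The genotypes overlapped at P14, and at P36 each CKO library was above each Control library. The log2 fold change in CKO was -1.56 ± 0.10 (SE, adjusted p = 9.19e-06) and in Control -2.06 ± 0.10, a difference of 0.51 ± 0.14.

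Mansc4 (chromosome 6, 147075062 to 147087032, minus strand, 3 merged exons) had 99 counts in Control and 89 in CKO at P14, and 7 and 10 at P36. The genotypes overlapped at both ages, and 1 library of each genotype at P36 had no count. In CKO it fell by 3.29 on the log2 scale (SE 0.64, adjusted p = 0.0039, or 0.0685 with a term for sex), beside a Control value of -4.07 ± 0.67. Without CKO replicate 3 at P36 the change in CKO was -3.90.

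The calcium channel gene Cacna1g and the receptor subunit gene Kctd16 kept 26.0% and 32.1% of their P14 mean in CKO, against 6.75% and 5.45% in Control. Cacna1g (chromosome 11, 94408391 to 94474198, minus strand, 36 merged exons) stood at 16.3, 15.04 and 12.9 CPM in Control at P14 and at 0.918, 1.15 and 0.926 CPM at P36. In CKO it stood at 15.5, 10.1 and 9.07 CPM at P14 and at 1.20, 2.89 and 4.94 CPM at P36. All CKO libraries at P36 exceeded the Control libraries, replicate 1 by a small margin. The highest is replicate 3, the library with raised cardiac markers, and the part of heart tissue in it was not tested. Cacna1g fell by 1.93 on the log2 scale in CKO (SE 0.38, adjusted p = 0.00473, or 0.1 with a term for sex), against -3.89 ± 0.42 in Control, a difference of 1.96 ± 0.55. Without replicate 3 the change in CKO was -2.51 and the difference 1.38.

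Kctd16 (chromosome 18, 40258361 to 40531184, plus strand, 2 merged exons) stood at 5.16, 3.80 and 2.79 CPM in Control at P14 and at 0.141, 0.297 and 0.201 CPM at P36. In CKO it stood at 8.50, 3.11 and 3.96 CPM at P14 and at 1.48, 2.89 and 0.628 CPM at P36. The genotypes overlapped at P14 and were apart at P36, where CKO held 102 counts and Control 16. An exon of another annotated gene, on the opposite strand and not in the count table, overlaps Kctd16 by 135 bases. Here replicate 3 is the lowest of the CKO libraries at P36. The log2 fold change with age was -1.65 ± 0.51 in CKO (adjusted p = 0.0342) and -4.19 ± 0.64 in Control, a difference of 2.53 ± 0.83. This was the least stable call of the set: 9 of its 18 alternatives lost it, among them the fits without CKO replicate 1 at P14 (-1.10, adjusted p = 0.133), without replicate 3 at P14 (-1.81, adjusted p = 0.0554), without replicate 1 at P36 (-1.59, adjusted p = 0.0776) and without replicate 3 at P36 (-1.24, adjusted p = 0.0819). Without replicate 2 at P36, its highest library of that age, the change was -2.29. Its adjusted p ran from 0.00946 to 0.356 over those 18.

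The kinase gene Camk1g (chromosome 1, 193346346 to 193370282, minus strand, 13 merged exons) had one of the deepest falls in CKO, not apart from that of Lrrc15 beyond their SE. It stood at 7.34, 4.44 and 4.31 CPM in Control at P14 and at 5.35, 3.06 and 2.40 CPM in CKO. At P36 there were 10 counts over the Control and 12 over the CKO libraries, 0.0805 to 0.212 and 0.158 to 0.232 CPM. The genotypes overlapped at both ages. The ratio per count of P14 to P36 was 19.0 in CKO (exact 95% interval 10.7 to 37.5, counting error only). The log2 fold change was -4.23 ± 0.44 in CKO (SE, adjusted p = 0.000134) and -5.31 ± 0.45 in Control. The difference was 1.08 ± 0.71. With a term for sex the change in CKO was -3.45 and no longer past the threshold (adjusted p = 0.142).

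Trim67 (chromosome 8, 124793019 to 124834704, plus strand, 10 merged exons) was the ubiquitin ligase gene of the set, and an exon of Gm16163 on the same strand, a gene not in the count table, overlaps it by 140 bases. It stood at 43.9, 33.0 and 29.8 CPM in Control at P14 and at 0.883, 1.44 and 1.13 CPM at P36. In CKO it stood at 31.6, 10.7 and 10.3 CPM at P14 and at 0.695, 1.10 and 2.51 CPM at P36. At P14 the 2 lower CKO values again belong to the libraries that shared a number, and replicate 1 lay within the Control range. At P36 the genotypes overlapped. Trim67 fell in CKO (-3.58 ± 0.54, adjusted p = 0.00162), and the difference from Control (-4.95 ± 0.56) was 1.38 ± 0.77. The change in CKO was -2.85 without replicate 1 at P14 and -4.28 without replicate 3 at P36.

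Across the set, the change with age was smaller in CKO than in Control for 9 of the 10 genes, Lrrc15 being the exception. The genes were chosen for a steep decrease in Control, a choice that favours a smaller change in CKO, so this count and each difference (given with its SE) are a description and no test. The differences ran from -0.64 (Lrrc15) to 3.69 ± 0.93 (Nell1). Group means in CKO were above Control for 3 of the 10 genes at P14 (Aspn, Lrrc15 and Kctd16) and for 10 of 10 at P36. Choosing genes with a steep decrease in Control favours the P36 count as well. Some of the 10 rested on few P36 counts in CKO and Control: Nell1 16 and 2, Lrrc15 7 and 7, Mansc4 10 and 7, Camk1g 12 and 10. The share over all genes was not computed for this count or for that of smaller changes. At P14 the number of genes higher in CKO moved between 2 and 5 when 1 library was left out. It was 2 without CKO replicate 1, and 5 without CKO replicate 2 or without Control replicate 1. CKO replicate 3 at P36 was the highest CKO library at that age for 6 of the 10 genes, and without it 8 of 10 were still higher in CKO at P36. In Control, leaving out the Y-high library (replicate 2) gave log2 fold changes from -6.60 (Nell1) to -2.03 (Sdk1), with Lrrc15 moving from -3.48 to -4.14 and Mansc4 from -4.07 to -4.73. The 2 Control libraries then left at P36 share a library number.

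**Figure D3:**
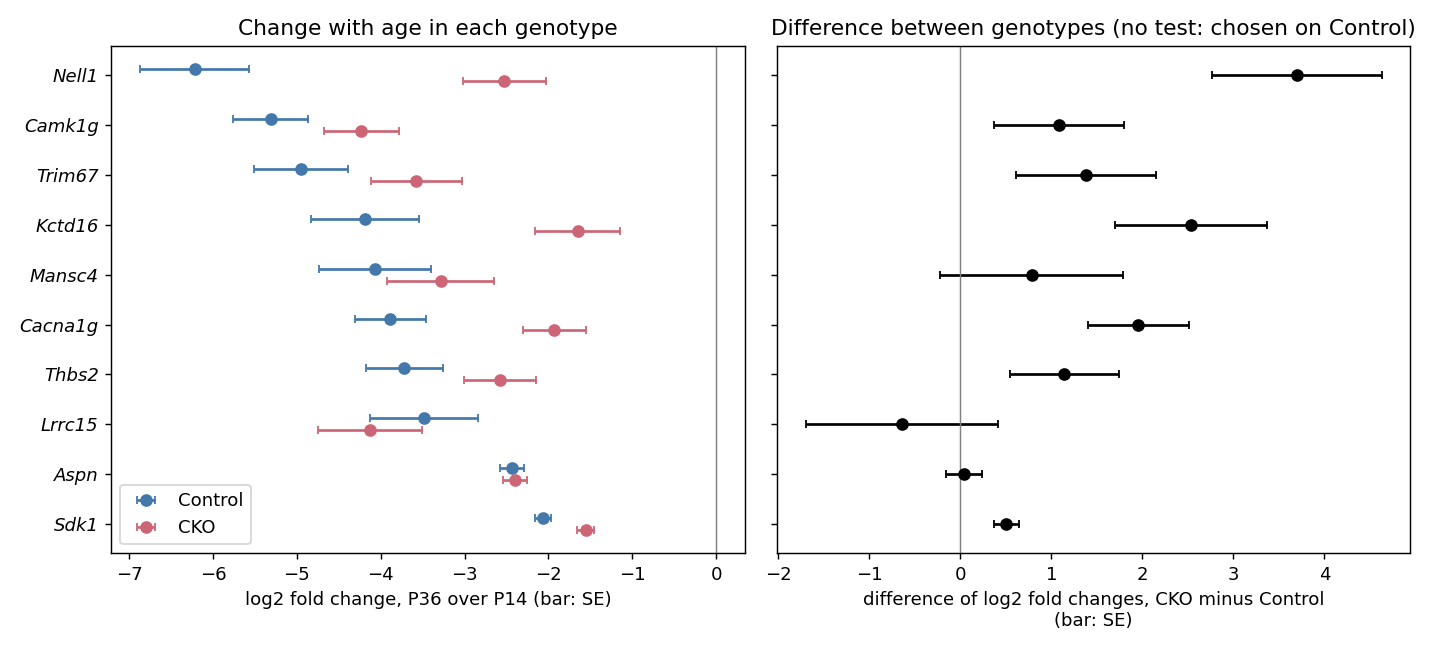
Left, log2 fold change of P36 over P14 in Control and in CKO with its SE for the 10 genes, ordered by the Control value. Right, the difference between the 2 with its SE, where 9 of the 10 points lie above 0, in genes that were selected for their Control decrease.

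The 10 genes followed each other across the 12 libraries, and less so within groups. Over the 45 pairs of genes, Pearson's r of log2 CPM was 0.732 to 0.990 with a median of 0.895. All pairs share the age contrast by choice. After each group's mean was taken off, the median r was 0.199 and the range -0.683 to 0.884, so libraries of a group did not shift all 10 genes together. The genes outside the set most like its mean profile over the 12 libraries were Lama4 and Nid2, which encode the basement membrane proteins laminin alpha 4 and nidogen 2 (r = 0.991 and 0.989). Slc8a1, a sodium-calcium exchanger, Marcksl1, the DNA methyltransferase gene Dnmt3a, the mitotic kinesin gene Kif11 and the imprinted RNA H19 came next, with Stox2, Afap1 and Palld, an actin-binding protein, closing the 10 (r = 0.982 for Palld). Their decreases were smaller than those of the set, except for H19, which stood at 27.8 CPM in Control at P14 and 2.43 CPM at P36, and at 26.6 and 5.26 CPM in CKO.

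Close relatives of the 10 genes moved in both directions. Of 21 relatives tested (25 listed), 7 fell and 4 rose in CKO and 9 fell and 4 rose in Control, with a median log2 fold change of -0.01 in CKO that is 0.01 when scaled by library totals. Of all genes 13.2% fell and 14.3% rose in CKO, and in Control 20.9% were lower and 21.0% higher. Sdk2, the partner gene of Sdk1, fell in CKO from 27.5 ± 1.90 to 11.9 ± 2.52 CPM (SD, n = 3, log2 fold change -1.21, adjusted p = 0.000557). Camk4, a related kinase, fell by 1.44 (adjusted p = 0.000518), and Cacna1c, an L-type channel of heart and smooth muscle, fell by 0.82 on the log2 scale (adjusted p = 0.00112). Camkk1, which phosphorylates kinases of the Camk1 family, rose by 1.19 (adjusted p = 0.00114). Among the small leucine-rich proteoglycans, the family of Aspn, 4 of 11 tested fell in CKO, although the median of the list was 0.11. With shared-number libraries summed 2 fell, and with a term for sex 0 (edgeR, 7 of the 11 at an unadjusted p under 0.05 without that term, and 6 past the threshold in DESeq2). The 4 were Ecm2 (-0.34), Ogn (-0.56), Fmod (-0.71) and Omd (-0.94), of which Fmod and Omd were lost with shared-number libraries summed (adjusted p = 0.0704 and 0.0932). Fmod was also lost without CKO replicate 1 or 2 at P14 or replicate 3 at P36 (adjusted p = 0.0818 for the last), and Omd without CKO replicate 2 or 3 at P14 or replicate 1 or 2 at P36.

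Genes of elastic fibres, collagen and cell division are known to be active while septa form. Of all genes, 13.2% were lower in CKO and 20.9% in Control. Of 19 elastic fibre genes, 10 fell and 2 rose in CKO, with a median of -0.44. In Control 13 of them were lower and 2 higher, with a median of -0.72. Eln, elastin, went from 5903 ± 122 to 1061 ± 263 CPM in CKO (SD, n = 3, log2 fold change -2.48 ± 0.24 SE, adjusted p = 0.000116), and Ltbp2, Fbn2 and the crosslinking enzyme gene Loxl2 changed by -1.61, -1.56 and -0.88. Of 19 fibrillar collagen genes and genes that process these collagens, 11 fell in CKO (median -0.45). In Control 11 of them were lower and 1 higher (median -0.86). The smallest adjusted p in CKO was for the procollagen protease gene Adamts2 at -1.10 ± 0.06 (2.3e-06). Col5a2 changed by -0.91, Col5a1 by -0.85 and the collagen chaperone gene Serpinh1 by -0.58. Col1a1 did not pass in CKO (-0.45, adjusted p = 0.18), beside -1.65 in Control (adjusted p = 0.000398). Of 20 genes of cell division 12 fell in CKO (median -0.58, 5 with a term for sex). Among them were the S-phase cyclin gene Ccna2 at -0.75, Top2a at -0.71 and Mki67 at -0.59. In Control 16 of the 20 were lower and 1 higher (median -0.96). The genes named here that passed in CKO kept their calls when any 1 CKO library was left out.

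Markers of myofibroblasts, smooth muscle and pericytes are given with their counts in both genotypes, beside 20.9% of all genes lower in Control and 13.2% in CKO. Of 17 alveolar myofibroblast markers, 13 were lower in Control and 6 fell in CKO (2 with a term for sex), with medians of -0.90 and -0.46. In CKO, the log2 fold changes were -0.92 for Tgfbi (adjusted p = 0.00319) and -2.95 for Egfem1 (adjusted p = 0.0208). That of Tnc, the matrix protein tenascin C, was -1.47 (adjusted p = 0.0343). Egfem1 and Tnc were lost without CKO replicate 1 at P14 or without any 1 CKO library at P36 (adjusted p = 0.0708 and 0.0774 without replicate 3). Pdgfra (0.06), Mustn1 (0.14) and Des (0.59) of the same list did not pass in CKO (adjusted p = 0.806, 0.608 and 0.153). In Control, Mustn1 was lower (-0.68, adjusted p = 0.0121), while Pdgfra (-0.32, adjusted p = 0.122) and Des (-0.54, adjusted p = 0.165) did not pass. Of 10 smooth muscle markers, 7 were lower in Control (4 with shared-number libraries summed) and 0 changed in CKO by edgeR, DESeq2 or limma-voom, 1 at an unadjusted p under 0.05, and 1 fell in edgeR with a term for sex. Acta2, smooth muscle actin, went from 349 ± 96.4 to 188 ± 5.32 CPM in Control means and from 284 ± 70.2 to 306 ± 117 CPM in CKO means (SD, n = 3). Its log2 fold change in CKO, 0.11 (adjusted p = 0.802), turned to -0.25 without CKO replicate 3 at P36. The summed smooth muscle markers were 1430 CPM in CKO replicate 3 at P36 and 857 CPM in the lowest CKO library of that age. Of 10 pericyte markers 8 were lower in Control (5 with shared-number libraries summed) and 2 fell in CKO, Rgs5 (-2.35 ± 0.40, adjusted p = 0.00294) and Postn (-0.43, adjusted p = 0.0499). Postn, a matrix protein, passed in 7 of 18 alternatives and in 1 of the 6 that left out a library, the one without CKO replicate 1 at P36. Whether a list as a whole differed between genotypes was not tested. Of 12 markers of lipofibroblasts and alveolar fibroblasts 5 fell and 1 rose in CKO (2 fell with a term for sex). In Control 5 of the 12 were lower and 3 higher. Tcf21, a transcription factor of lung mesenchyme (-1.11), and Scube2 (-1.30) were among those that fell in CKO. The gene that rose there was Lpl (0.75, adjusted p = 0.0202). The 3 higher in Control were Lpl (1.02), Inmt (1.93) and Plin2 (0.62). Of 15 genes of TGF-beta signalling 4 fell in CKO, 1 with shared-number libraries summed and 2 without CKO replicate 3 at P36. The co-repressor gene Skil changed by -0.58, and the receptor gene Tgfbr1, at -0.25, was lost without CKO replicate 2 or 3 at P14 or replicate 2 or 3 at P36.

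**Figure D4:**
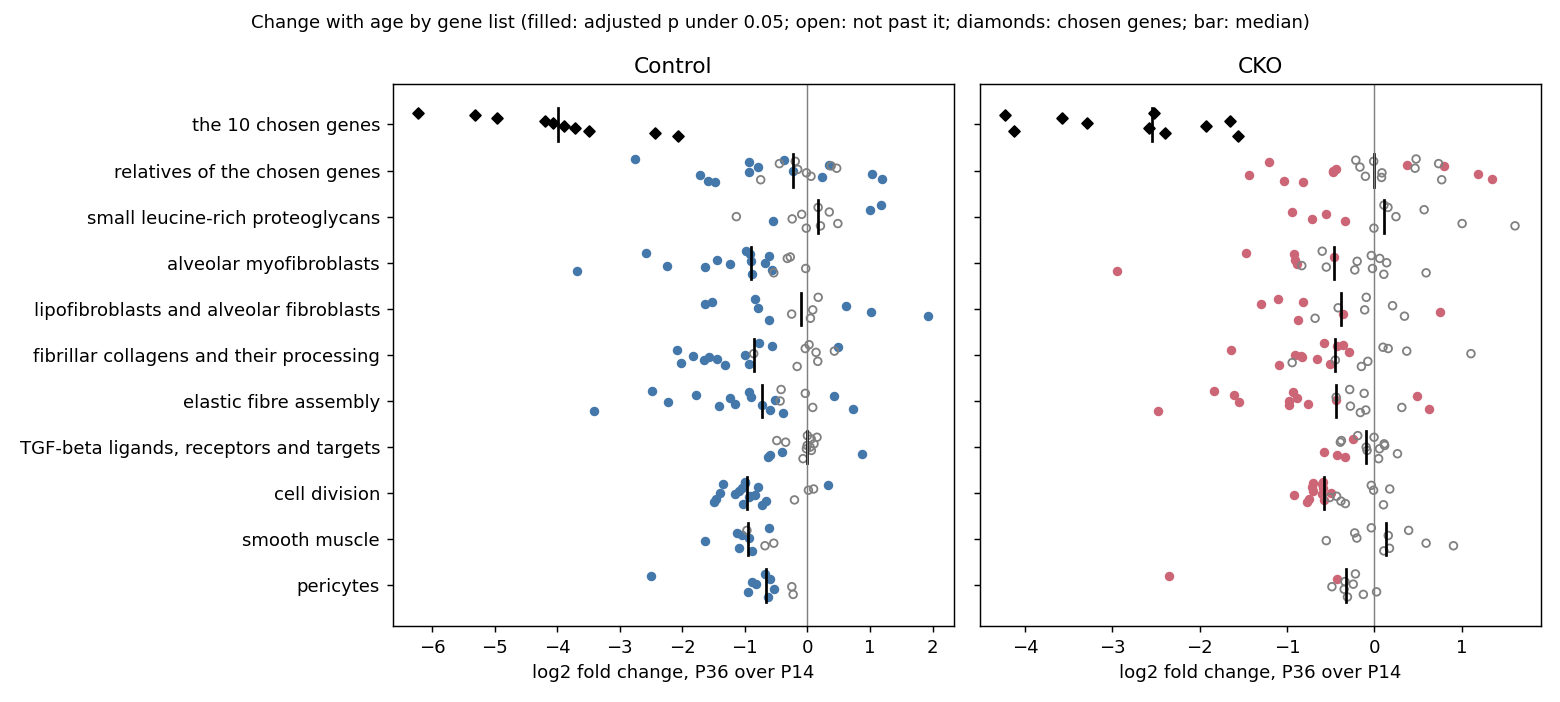
Log2 fold change of P36 over P14 for each tested gene of 10 gene lists and for the 10 chosen genes, in Control (left) and CKO (right, with its own axis range), filled where the adjusted p was under 0.05, with a bar at the median. The chosen genes, selected for this change in Control, have medians of -3.98 and -2.55.

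Markers of tissues outside the alveolar wall gave the following levels beside these results. Of 12 cartilage genes 3 were tested, and they summed to 11.98 to 16.01 CPM in Control and 9.57 to 11.1 CPM in CKO at P14, and to 3.78 to 6.25 and 4.58 to 5.46 CPM at P36. The defining cartilage genes Col2a1 and Acan had too few counts to be tested. Of 10 bone genes 5 were tested, and Sp7, Ibsp and Bglap were not among them. Neuron and glia markers (7 of 12 tested) summed to 7.86 to 36.4 CPM in Control at P14 and 10.9 to 12.4 CPM at P36, and to 11.9 to 16.8 and 10.9 to 20.8 CPM in CKO. Cardiac muscle markers (9 of 11) summed to 194 to 1985 CPM in Control at P14 and 173 to 221 CPM at P36, lowest at P14 in replicate 1, which was the highest of the 3 for 9 of the 10 chosen genes, all but Nell1. The part of these tissues in the levels of the 10 genes was not tested.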

How the data were processed

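RNA-seq read counts per gene of 12 whole-lung libraries were used as deposited. The submitters' processing notes name FastQC, STAR, featureCounts, edgeR and build mm10, without versions. A second table deposited by the authors, of log2 values for 15458 genes, matched TMM-scaled log2 CPM (prior count 2) with no deviation above 5e-09. Counts were filtered (minimum count 10, minimum total 15), scaled by TMM and fitted over all 4 groups with edgeR 4.0.16 (quasi-likelihood) in R 4.3.3, with Benjamini-Hochberg adjustment. DESeq2 1.42.0 and limma 3.58.1 (voom) were alternatives.

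The 10 genes and the gene lists were chosen with earlier results of these data known. Text names all 10, up to 4 list genes with the smallest adjusted p in CKO (the 2 most abundant where none passed), and the 10 genes best correlated with the set. A few further list genes are named outside this rule, to show other values of the same lists. RPKM used summed exon length. Libraries of different groups with the same replicate number were not paired: their deviations from group means correlated by -0.28 to 0.588 over 18 pairs (median 0.04). On simulated CKO counts for 15923 genes, 79% of 2-fold and 96% of 4-fold changes were recovered, with 6 false calls. The changes were placed only in genes with higher total counts than Nell1, Lrrc15, Mansc4 and Camk1g, so these rates do not cover those genes. Libraries were drawn independently, without the likeness of the pairs that share a library number. Intervals on counts cover counting error only.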

Additional observations from a re-analysis of the deposited data

Results flagged for a closer look

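Col5a1, which encodes a chain of type V collagen, differed between genotypes in its change with age. It stood at 328 ± 18.2 CPM in Control at P14 and 92.3 ± 15.1 CPM at P36, and at 312 ± 28.4 and 174 ± 18.4 CPM in CKO (SD, n = 3). The interaction of age and genotype was 0.98 ± 0.16 on the log2 scale (SE, edgeR, adjusted p = 0.0299), and it was 1 of 256 genes past the threshold among 15923. It was lost with libraries of a shared number summed (0.87, adjusted p = 0.257), with a term for sex (0.73, adjusted p = 0.178), and without CKO replicate 2 or 3 at P14, CKO replicate 2 at P36, Control replicate 2 or 3 at P14, or Control replicate 1 or 3 at P36. Its adjusted p ran from 6.6e-06 (DESeq2) to 0.593. The flag was looked for only among 34 list genes taken by the naming rule above. Other list genes also passed for this interaction in edgeR. Among them were Fbln2 of the elastic fibre list at 1.13 (adjusted p = 0.0237) and, with the opposite sign, Inmt at -1.59 (adjusted p = 0.0322) and Has1 at -3.29 (adjusted p = 0.0462).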

How the results depend on the processing

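Of the 10 genes, 10 passed in CKO with no filter, a stricter filter, other scalings, DESeq2, limma-voom and the replicate block, 5 with a term for sex, 1 with that term and shared-number libraries summed, and 9 to 10 with 1 library left out. Summing together with the sex term, and summing without CKO replicate 3 at P36, were chosen after seeing the data. All genes past the threshold numbered 4388, against 4221 with the replicate block, 2152 summed, 2056 with the sex term, 1543 summed without CKO replicate 3 at P36, 49 summed with the sex term, and 2490 (without CKO P14 replicate 3) to 4263 with 1 library left out. The genes higher in CKO numbered 2 to 5 at P14 and 8 to 10 at P36 with 1 library left out, and 6 at P36 when only those 2 groups were fitted, where the others were not tested. The smaller change in CKO held for 8 to 9. List genes that fell in CKO numbered 64, with the sex term 37 and summed with it 4 (50 to 62 with 1 library left out), those that rose 23, with the sex term 14, summed without replicate 3 11 and summed with the sex term 0 (19 to 26). In Control, list genes lower numbered 92, summed with the sex term 58 (82 to 98), and higher 39 (36 to 40). Acta2 in CKO, not past the threshold in any setting, was 0.11, between -0.25 (without CKO P36 replicate 3) and 0.32 with 1 library left out (-0.01 without CKO P14 replicate 3), and -0.35 summed without CKO P36 replicate 3. The cause was not tested. Nell1, Lrrc15, Mansc4 and Camk1g had 2 to 16 counts a group at P36, which limits their folds.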
